A study of Mus musculus with 6 samples.

Results

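The genes examined here form the core of the intrinsic, or mitochondrial, pathway of apoptosis. They are Bcl2, Bcl2l1 and Mcl1, which restrain the pathway, Bax and Bak1, which open the outer mitochondrial membrane, Bcl2l11, which sets the pathway off, and Apaf1 and Casp9, which act once cytochrome c has been released. The members were chosen by name, as 8 of the 17705 genes with an Entrez identifier in the files (19401 with the unannotated regions that the files name BGI_novel), and each of the 8 names matched 1 gene. In RefSeq (GRCm38.p6) the genes restraining apoptosis lie as Bcl2 (Entrez 12043) at chr1:106538176-106714290, Bcl2l1 (Entrez 12048) at chr2:152758732-152833803 and Mcl1 (Entrez 17210) at chr3:95656944-95663179. The effectors are Bax (Entrez 12028) at chr7:45461695-45466903 and Bak1 (Entrez 12018) at chr17:27019812-27028627, and the remaining genes are Bcl2l11 (Entrez 12125) at chr2:128126038-128162547, Apaf1 (Entrez 11783) at chr10:90989311-91082743 and Casp9 (Entrez 12371) at chr4:141793612-141815978. RNA was measured in the retina plus retinal pigment epithelium (RPE) of 5XFAD mice, which are hemizygous for transgenes encoding mutant human amyloid precursor protein and mutant human presenilin and serve as a model of Alzheimer's disease. All groups carried these transgenes on the B6SJL background, without the retinal degeneration alleles rd8 (Crb1) and rd1 (Pde6b), and no wild type retina was part of the comparison. EFV-treated mice received efavirenz (EFV), an anti-HIV drug that activates the cholesterol hydroxylase CYP46A1 at small doses, in drinking water from 3 to 9 months of age (0.08 mg/kg body weight per the sample labels, while the methods of the study give a slightly higher daily dose). Control mice drank water with the vehicle, Tween 80. Each group had 3 libraries from mice of 9 months, and each library was a pool of 1 retina per mouse from 5 to 6 mice that the study describes as male, and replicate error here is therefore error between pools.

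In healthy cells BCL-2, BCL-XL (the main product of Bcl2l1) and MCL-1 hold the effectors BAX and BAK in check at the mitochondrial outer membrane. Stress signals raise or release BH3-only proteins such as BIM (the product of Bcl2l11), which bind the guardians and allow BAX and BAK to form pores. Cytochrome c then leaves the mitochondria and assembles with APAF1 into the apoptosome, which activates caspase 9 and, through it, further caspases. In the retina the pathway is best known for the death of ganglion cells during development and after injury of the optic nerve, in which BAX is needed. Much of the pathway is controlled on the level of the proteins, by binding, cleavage and degradation, and RNA levels do not show these steps.

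The libraries held 23455167 to 24590278 rounded expected counts (estimated reads assigned to genes), and sampling noise alone did not account for the differences within any pair of libraries (the chi-square was at least 5.59 for each degree of freedom). Defining markers of rods were abundant in each library, with a summed FPKM of 8 rod genes from 24380 to 26180, and 8 RPE genes summed to 231.1 to 279. Most of the RPE sum was Rlbp1 (208.2 to 231.6), which is also used here as a Müller cell gene. Control library 2 was the lowest for Rpe65, with 2.35 against 4.65 to 6.69, and for Ttr, with 14.5 against 27.8 to 34.4. It was not the lowest for Rlbp1 or Best1. FPKM is the number of fragments scaled by transcript length and by the mapped fragments of the library, so it can be compared between genes. In other genes a pair of libraries stood apart. Control library 3 had a summed FPKM of 2176 for 9 lens genes against 19.7 to 108.4 in the others, and EFV library 3 had a summed FPKM of 25.2 for 4 Y-linked genes against 51.9 to 69.8. The log2 fold change of each member and of each further gene past the limits is also given without either of these libraries, and the part of lens, RPE or sex in the results was not tested. Since whole tissue was measured, fewer cells of a type and less RNA per cell cannot be told apart.

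The 8 genes spanned a 12.4-fold range of levels. Mean FPKM over the 6 libraries was 29.0 for Bcl2l1, 24.4 for Bax, 21.8 for Mcl1, 7.44 for Casp9, 6.30 for Bak1, 4.76 for Bcl2, 4.46 for Bcl2l11 and 2.34 for Apaf1. In this order the ranges of neighbouring genes over the 6 libraries were apart, with Bcl2 (4.21 to 5.06) and Bcl2l11 (3.87 to 5.09) as the exception, and the place of these 2 genes could not be told from their spread. Bcl2l1 lay at percentile 84.7 of the mean FPKM of all genes tested and Apaf1 at percentile 26.7. Among the members, Bcl2l1 was the guardian and Bax the effector with the highest RNA level, and Bcl2 had the lowest level of the 3 guardians. The genes had 280 (Bak1) to 1903 (Mcl1) counts in a library, so counting error alone gave a coefficient of variation from 2.35% for Mcl1 to 5.77% for Bak1. Within groups the observed coefficient of variation ran from 3.61% for Bax to 8.74% for Bcl2l11. For Bax (counting error 4.05%) and Bak1 (5.16% observed, 5.77% counting error) it was below counting error. With 3 libraries per group it is a rough estimate.

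**Figure D1:**
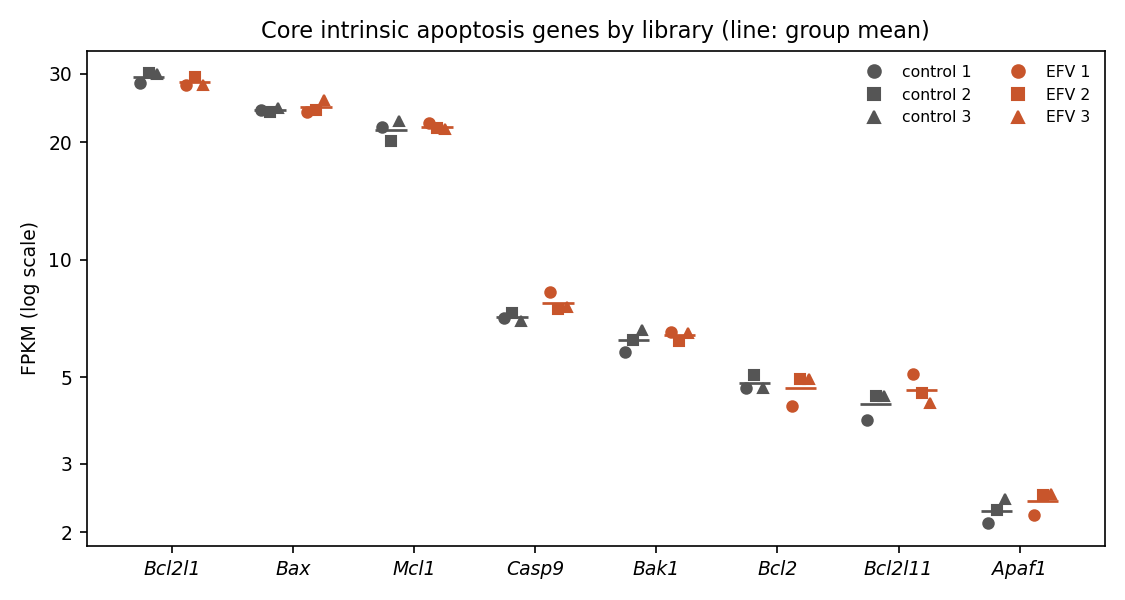
FPKM (log scale) of the 8 core intrinsic apoptosis genes in the 3 control (grey) and 3 EFV (orange) libraries, ordered by mean level; marker shapes give the library number and lines the group means. Bcl2l1, Bax and Mcl1 lay between 20.1 and 30.1, the others between 2.11 and 8.25, and only for Casp9 were all EFV points above all control points.

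Setting EFV-treated against control mice asks whether the treatment changed the expression of these genes. An adjusted p of 0.05 or less was reached by 0 of the 8 (quasi-likelihood test of edgeR, Benjamini-Hochberg over 15537 genes and regions), and the same rule called 0% of all genes tested, where the smallest adjusted p was 0.323. None of the members had an unadjusted p of 0.05 or less, whereas 472 of all genes had. At the limits that the study states, an unadjusted p of at most 0.05 and a change of at least 7% as a fold, applied here to edgeR, 0 of the 8 members passed and 467 of all genes did (3.01%). DESeq2 and limma on log2(FPKM + 0.1) also passed 0 of the 8 at these limits (1.73% and 3.15% of all genes) and called 0 of the 8 after adjustment. The study based its own threshold on the Poisson distribution. A Poisson model fitted here, in which only counting error enters, passed Casp9 and Bcl2l11 at the same limits, beside 14.8% of all genes tested. It called neither after adjustment, and neither is among the genes that the study called. The log2 fold changes lay above 0 for 5 members and below 0 for 3, from -0.06 (Bcl2l1) to 0.11 (Casp9), and their median was 0.02 against 0.00 for all genes tested. The 95% intervals of the 8 reached from a fold change of 0.867 at the lowest to 1.24 at the highest, so larger changes than these in either direction lay outside the interval of each gene.

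**Figure D2:**
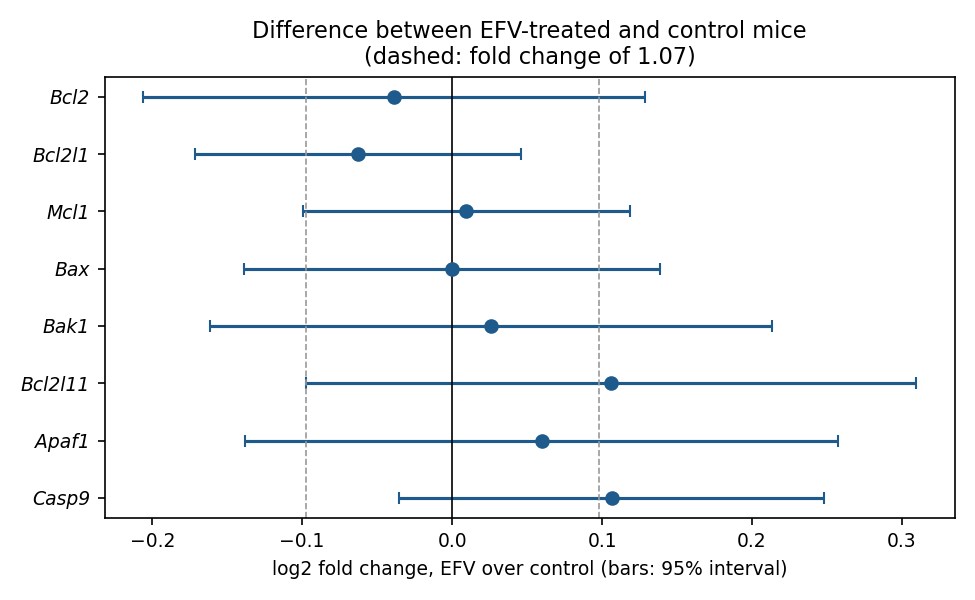
Log2 fold change of each member, EFV-treated over control, with the 95% interval from the edgeR fit; dashed lines mark a change of 7% as a fold in either direction. All 8 intervals include 0, the widest being that of Bcl2l11 (-0.10 to 0.31).

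Bcl2l1 was the most abundant of the 3 guardians among the members. Its FPKM was 28.4, 30.1 and 29.9 in control libraries 1, 2 and 3 and 28.0, 29.4 and 28.1 in EFV libraries 1, 2 and 3. EFV libraries 1 and 3 were the lowest of the 6, and EFV library 2 lay inside the control range. Between the groups the log2 fold change was -0.06 (standard error 0.05, 95% interval -0.17 to 0.05, adjusted p = 0.999 by edgeR), and it stayed between -0.10 and -0.04 with each library left out (-0.05 without control library 3 and -0.05 without EFV library 3). Mcl1 encodes MCL-1, a short-lived guardian whose protein is turned over within minutes to hours by the proteasome. Its FPKM was 21.9, 20.1 and 22.7 in control and 22.4, 21.8 and 21.7 in EFV-treated mice. The EFV values fell inside the control range, whose low end was control library 2. On the log2 scale the fold change of 0.01 (standard error 0.05, 95% interval -0.10 to 0.12) became -0.03 without control library 2 and 0.00 without EFV library 1, and was 0.05 without control library 3 and 0.02 without EFV library 3. Mcl1 is represented in the files by a single transcript of 3498 bases.

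Bcl2, the founding member of the family, had an FPKM of 4.70, 5.06 and 4.70 in control and 4.21, 4.95 and 4.93 in EFV-treated mice. EFV library 1 was the lowest of the 6 and control library 2 the highest, and the groups overlapped. The log2 fold change was -0.04 (standard error 0.07, 95% interval -0.21 to 0.13, adjusted p = 0.999 by edgeR), with a change of sign to 0.01 without control library 2 and to 0.02 without EFV library 1. It was -0.07 without control library 3 and -0.07 without EFV library 3. Bcl2 made up 7.71% to 9.16% of the summed FPKM of the 3 guardians, Mcl1 36.4% to 41.0% and Bcl2l1 51.3% to 54.4%. The groups overlapped in each of these shares.

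The files list 2 RefSeq transcripts for Bcl2 and give, for each library, their mean length weighted by their estimated share. In GENCODE M21, on the same build as the files (mm10, GRCm38), the matching transcripts have 7191 bases in 2 exons and 2841 bases in 1 exon. The coding sequences share their first 577 bases. The longer one goes on in the 2nd exon with the end of BCL-2 alpha, which anchors the protein in the membrane, and the shorter one reads on past the exon border for 20 bases before its stop codon. The 2 ends are shown because the mean length reports on them. Each line starts with the last 30 shared bases in lower case, and capitals mark the bases of the transcript's own, which lie on the minus strand at chr1:106543267-106543397 for the long and chr1:106712284-106712303 for the short form.

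Bcl2 long form: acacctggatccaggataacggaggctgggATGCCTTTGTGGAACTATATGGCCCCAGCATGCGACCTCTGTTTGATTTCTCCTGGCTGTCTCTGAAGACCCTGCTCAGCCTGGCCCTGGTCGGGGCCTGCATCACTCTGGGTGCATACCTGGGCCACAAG
Bcl2 short form: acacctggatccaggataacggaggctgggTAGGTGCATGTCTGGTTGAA

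Mean transcript length of Bcl2 was 7061, 7031 and 6903 bases in control and 7209, 6923 and 7100 bases in EFV-treated mice. A higher value means a smaller estimated share of the short form. In EFV library 1, where the FPKM of Bcl2 was lowest, the length was also the highest of the 6, and control library 3 and EFV library 2 had the lowest values. The highest value exceeds the 7191 bases of the GENCODE transcript, so the annotation behind the files differed slightly from it. The groups overlapped, and the lengths of a library are estimates without an error of their own. Among the other members the length varied over the libraries by 4.98% of its mean for Bax (1059 to 1113 bases), by 1.79% for Bcl2l11 and by less than 1% for Bcl2l1, Apaf1, Bak1 and Casp9, and the groups overlapped for Bax as well.

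**Figure D3:**
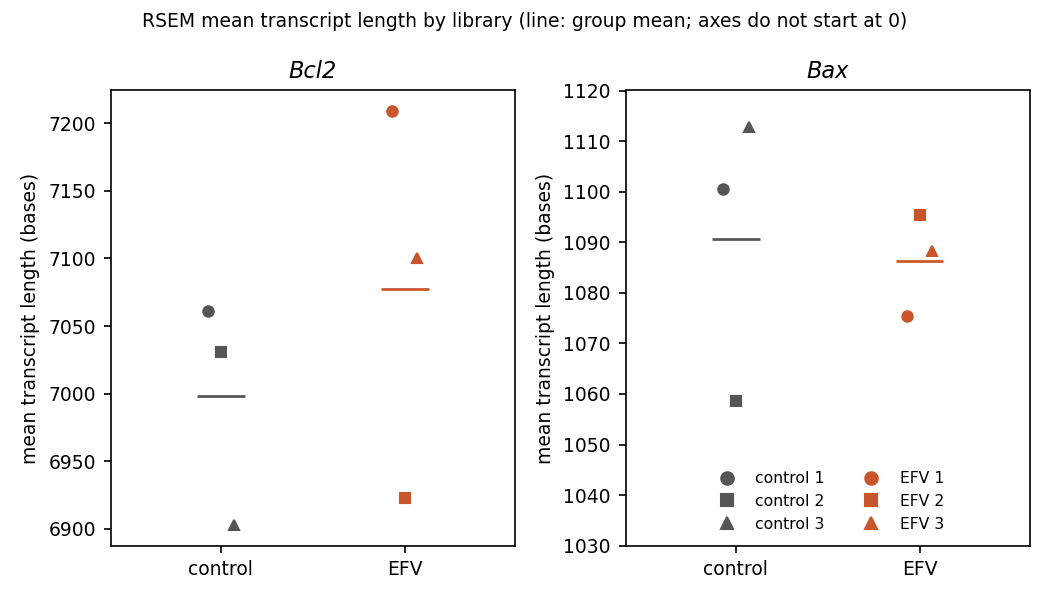
Mean transcript length in bases, as RSEM estimated it, of Bcl2 (left) and Bax (right) in the 3 control and 3 EFV libraries; lines are group means and the axes do not start at 0. Bcl2 ran from 6903 to 7209 bases and Bax from 1059 to 1113 bases, with overlapping groups for both.

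Bax and Bak1 encode the effectors that form the pores. The FPKM of Bax was 24.2, 24.0 and 24.5 in control and 23.9, 24.2 and 25.7 in EFV-treated mice. EFV library 3 was the highest and EFV library 1 the lowest of the 6, with all control libraries between them. Its log2 fold change was 0.00 (standard error 0.06, 95% interval -0.14 to 0.14, adjusted p = 1.00 by edgeR), and its sign changed with the scaling, from -0.0002 with TMM to 0.02 with total counts, and with a library left out, from 0.02 without control library 3 to -0.03 without EFV library 3. For Bak1 the FPKM was 5.79, 6.22 and 6.62 in control and 6.54, 6.19 and 6.47 in EFV-treated mice, so the EFV libraries lay inside the control range. The fitted log2 fold change of 0.03 (standard error 0.08, 95% interval -0.16 to 0.21) became -0.03 without control library 1, and was 0.07 without control library 3 and 0.02 without EFV library 3. Bak1 carries a limit of its own, since 25.5% of its exonic bases are shared with Ggnbp1 on the opposite strand (mean FPKM of Ggnbp1 1.68) and the strandedness of the libraries is not stated. Bax shares 12.2% of its exonic bases with the annotated gene Gm45808 on the same strand.

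Bcl2l11 encodes BIM, a BH3-only protein that can bind all guardians. Its FPKM was 3.87, 4.48 and 4.47 in control and 5.09, 4.56 and 4.28 in EFV-treated mice. The lowest value was in control library 1 and the highest in EFV library 1, and EFV library 3 lay below 2 of the 3 controls. The log2 fold change was 0.11 (standard error 0.09, 95% interval -0.10 to 0.31, adjusted p = 0.999 by edgeR), and it dropped to 0.04 without control library 1 and to 0.04 without EFV library 1. It was higher, at 0.17, without EFV library 3 and 0.14 without control library 3, and the unadjusted p stayed above 0.05 in each case. Of the 8 members Bcl2l11 had the largest spread within groups.

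Apaf1 and Casp9 encode the scaffold and the protease of the apoptosome. The FPKM of Apaf1 was 2.11, 2.28 and 2.43 in control and 2.21, 2.49 and 2.50 in EFV-treated mice. EFV library 1 lay inside the control range and the other two EFV libraries just above it. Between the groups the log2 fold change was 0.06 (standard error 0.09, 95% interval -0.14 to 0.26), with 0.00 without control library 1, 0.12 without EFV library 1, 0.11 without control library 3 and 0.03 without EFV library 3. Casp9 had an FPKM of 7.07, 7.32 and 6.98 in control and 8.25, 7.48 and 7.55 in EFV-treated mice. All 3 EFV libraries lay above all 3 controls, with the gap in FPKM set by control library 2 and EFV library 2. Overlap was called in TMM-scaled counts, where the closest pair was control library 2 (660 counts) and EFV library 3 (701 counts). After scaling these libraries were nearly equal, so the separation of the groups was narrow. Casp9 was the 1 member of 8 whose groups did not overlap; 8.14% of all genes tested had groups that did not overlap in either direction, and 3.95% had all EFV libraries above all controls. Mean FPKM was 7.12 ± 0.176 in control mice and 7.76 ± 0.426 in EFV-treated mice (SD, n = 3 each). On the log2 scale the fold change of Casp9 was 0.11 (standard error 0.06, 95% interval -0.04 to 0.25, adjusted p = 0.999 by edgeR; unadjusted 0.124), and it was 0.06 without EFV library 1, 0.09 without control library 3 and 0.13 without EFV library 3. With 3 libraries against 3, the smallest two-sided p of an exact permutation test is 0.1. Casp9 shares 1.81% of its exonic bases with each of the pancreatic protease genes Cela2a and Ctrc on the opposite strand.

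The members did not take their highest and lowest values evenly from the libraries. EFV library 1 held 5 of the 16 extremes, namely the highest FPKM of Bcl2l11 and Casp9 and the lowest of Bcl2, Bcl2l1 and Bax. Each control library held 3, EFV library 3 held 2, and EFV library 2 held 0. EFV library 1 also had the highest summed FPKM of the Y-linked genes. Likeness between genes was measured as the root mean square difference of log2 CPM (counts scaled by library size) over the 6 libraries, each gene centred on its own mean, among the members and 39 further apoptosis genes. For each member the nearest of the 46 other genes was taken, and its difference is set beside the member's own root mean square deviation from its mean, which is the difference from a gene that does not vary. The gene nearest to Casp9 was Ccng1, a target gene of p53, with a difference of 0.04 beside an own deviation of 0.07. For Bcl2l11 it was Trp53, which encodes p53 (0.07 beside 0.12), for Bcl2 it was Bcl2l1 (0.07 beside 0.08) and for Apaf1 it was Bax (0.08 beside 0.09). Diablo was nearest to Mcl1 (0.04 beside 0.05) and to Bak1 (0.05 beside 0.06), and Fadd to Bcl2l1 (0.05 beside 0.06). Bcl2l2, the gene nearest to Bax, was farther from it (0.0454) than a gene that does not vary (0.0426). The nearest gene was picked as the smallest of 46 differences, so its closeness is a description. Genes that vary little are close to each other by this measure, and the 6 libraries share their depth and preparation.

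Ratios within a library remove differences in depth. The ratio of Bax to Bcl2, a common summary of the balance between effector and guardian, was 5.14, 4.73 and 5.22 in control and 5.68, 4.90 and 5.22 in EFV-treated mice. EFV library 1 had the highest ratio and control library 2 the lowest, and the groups overlapped. Means were 5.03 ± 0.261 (SD, n = 3) and 5.26 ± 0.392 (SD, n = 3), and on the log2 scale the EFV mean was higher by 0.06, less than the SD of 0.09 between libraries of a group. Because Bcl2 had the lowest level of the 3 guardians among the members, the ratio of all 3 guardians to both effectors was also taken. Bcl2l2, a guardian outside the members with a mean FPKM of 39.6, is in neither this sum nor the shares given above. The summed FPKM of Bcl2, Bcl2l1 and Mcl1 was 1.83, 1.83 and 1.84 times that of Bax and Bak1 in control and 1.79, 1.84 and 1.70 times in EFV-treated mice. The controls were closely alike. EFV libraries 1 and 3 lay below them, and EFV library 2 lay just above, at 1.845 against 1.841 for the highest control. Means were 1.835 ± 0.00491 in control and 1.779 ± 0.0734 in EFV-treated mice (SD, n = 3 each). The ratio of Casp9 to Apaf1 ran from 2.87 to 3.73 with overlapping groups. All of these are ratios of RNA levels and were not tested.

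**Figure D4:**
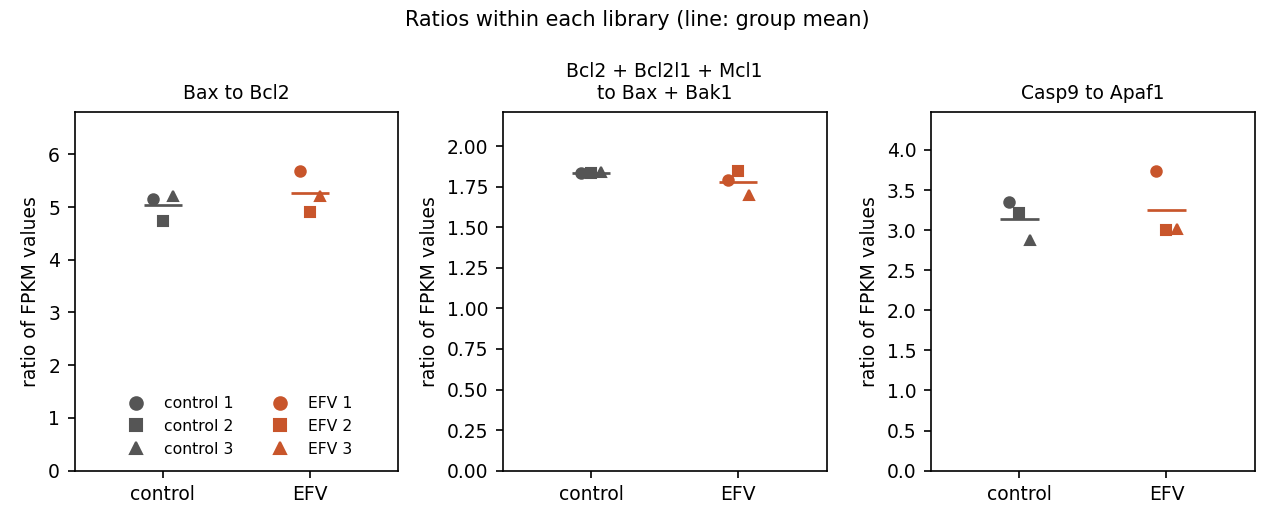
Ratios of FPKM values within each of the 3 control and 3 EFV libraries for Bax to Bcl2, the 3 guardians to the 2 effectors, and Casp9 to Apaf1; lines are group means and each axis starts at 0. The groups overlapped in all panels, with Bax to Bcl2 between 4.73 and 5.68.

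The promoters of the members were read from RefSeq (GRCm38.p6) as the 250 bases before each start listed for them. All 8 genes were matched, with 11 windows, since 3 starts were listed for Bcl2l1 and 2 for Bcl2l11. The 3 windows of Bcl2l1 (minus strand) lie at or below chr2:152831978, inside the gene, whose 5′ end is at 152833803. The window of Mcl1 (chr3:95658471-95658720, plus strand) also lies inside its gene, which starts at 95656944. The bases before the outermost starts of Bcl2l1 and Mcl1 were therefore not read. The windows were 47.6% to 75.6% G or C, against a median of 52.4% for all 32851 windows in the table. The GC box GGGCGG, the motif of the SP1 family, was searched on either strand. It was found in 7 of the 11 windows, from 6 of the 8 genes, compared with 32.7% of all windows. The windows of Bak1 and Bcl2l1 held none. Bcl2 had the most matches with 7, followed by Casp9 with 4. The E-box CACGTG was found in 1 window, that of Bax (6.02% of all windows), where it did not overlap a GC box. The letters TATAAA were found in none of the 11 (12.4% of all windows), and CCAAT in the 2 windows of Bcl2l11 (33.8% of all windows). A match is a description of the letters and not a binding site. The upstream sequences of Casp9, as the member without overlap between the groups, and of Bax and Bcl2, as the pair of the ratio above, are shown 5′ to 3′ on the strand of the gene, and capitals mark GC boxes on either strand. They lie at chr4:141793362-141793611 (plus strand), chr7:45466899-45467148 (minus strand) and chr1:106714291-106714540 (minus strand).

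Casp9: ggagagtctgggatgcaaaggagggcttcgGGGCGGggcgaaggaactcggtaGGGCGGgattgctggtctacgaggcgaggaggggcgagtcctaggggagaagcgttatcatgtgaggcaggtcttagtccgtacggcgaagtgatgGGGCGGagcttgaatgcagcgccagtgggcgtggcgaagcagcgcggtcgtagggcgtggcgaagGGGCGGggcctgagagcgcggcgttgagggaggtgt
Bax: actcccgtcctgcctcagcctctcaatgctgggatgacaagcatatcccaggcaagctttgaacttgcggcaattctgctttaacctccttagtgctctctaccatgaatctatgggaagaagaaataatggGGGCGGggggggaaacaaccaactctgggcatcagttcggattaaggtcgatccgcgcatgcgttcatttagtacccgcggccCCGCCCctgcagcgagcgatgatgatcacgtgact
Bcl2: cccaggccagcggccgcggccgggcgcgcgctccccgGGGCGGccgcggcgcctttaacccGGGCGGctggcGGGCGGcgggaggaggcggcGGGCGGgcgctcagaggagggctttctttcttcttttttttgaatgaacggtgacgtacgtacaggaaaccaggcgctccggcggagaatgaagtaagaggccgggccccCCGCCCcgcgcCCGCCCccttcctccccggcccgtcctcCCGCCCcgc

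Further genes of apoptosis were examined in 5 lists, of which 44 of 45 genes were found in the files and 39 had enough counts to be tested. After adjustment edgeR, DESeq2 and limma called 0 of them (0%, 0.0708% and 0% of all genes), and the Poisson model called 5, beside 13.1% of all genes. At the limits of p and fold change above, 3 of the 39 passed (Bad and Bmf lower, Zmat3 higher), where 3.01% of all genes did. The study had already called Bmf and Zmat3 from these same libraries, in the same directions, and lists both under positive regulation of apoptosis. Bad is not among the genes it called. The lists were fixed with earlier results of these data known, so this share is a description and not an independent comparison. DESeq2 passed 2 of the 39 (1.73% of all genes), limma on log2(FPKM + 0.1) passed 1 (3.15% of all genes), and the Poisson model passed 5, beside 14.8% of all genes. With 1 library left out the count fell to between 0 and 2, and it was 0 without control library 2, without control library 3 and without EFV library 1. Log2 fold changes lay above 0 for 28 genes and below 0 for 11, with a median of 0.02. The groups did not overlap for 3 of the 39 (Bad and Fadd lower, Ripk1 higher), beside 8.14% of all genes.

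Among the other guardians 2 of 6 were tested and 0 passed. Bcl2l2, which encodes BCL-W, was more abundant than any of the 8 members, at 39.4 ± 0.856 FPKM in control mice and 39.9 ± 0.215 FPKM in EFV-treated mice (SD, n = 3 each). Its log2 fold change was 0.00 (standard error 0.04). Bcl2l10 had a mean FPKM of 1.18 in control and 0.983 in EFV-treated mice (log2 fold change -0.28, standard error 0.32). The Bcl2a1 genes, near-identical copies that white blood cells express, had 5 counts or fewer in every library or were not listed. Adding Bcl2l2 to the members, the guardians of highest RNA level in this tissue were therefore BCL-W, BCL-XL and MCL-1.

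The list of BH3-only genes and Bok had 7 of 8 genes tested, with 4 above 0 and 3 below. Bad encodes a BH3-only protein that growth factor signaling keeps inactive by phosphorylation. Its FPKM was 13.4, 13.5 and 13.0 in control and 10.52, 10.96 and 12.36 in EFV-treated mice, so all EFV libraries lay below all controls. The log2 fold change was -0.20 (standard error 0.08, unadjusted edgeR p 0.0414). This p was above 0.05 without 5 of the 6 libraries in turn (0.0502 to 0.132), the exception being EFV library 3 (0.0225). It was also above 0.05 with DESeq2 (0.129), total counts (0.0621) and the replicate block (0.0629), while limma on log2(FPKM + 0.1) gave 0.00891. Without control library 3 the log2 fold change of Bad was -0.22, and without EFV library 3 it was -0.25. Bmf encodes a BH3-only protein that is held at the cytoskeleton. It had an FPKM of 3.60, 5.04 and 4.96 in control and 3.77, 3.35 and 3.95 in EFV-treated mice. Control library 1 was as low as the EFV libraries, and the groups overlapped. Its log2 fold change was -0.33 (standard error 0.13, unadjusted edgeR p 0.0293), with -0.48 without control library 1, -0.24 without control library 2, -0.27 without control library 3 and -0.37 without EFV library 3. The unadjusted p of Bmf was above 0.05 without control library 2, control library 3, EFV library 1 and EFV library 2 in turn (0.0512 to 0.109) and with limma on log2(FPKM + 0.1) (0.0859). By edgeR it was 0.000487 without control library 1 and 0.0350 without EFV library 3, and DESeq2 on all libraries gave 0.0129. Bbc3, which encodes PUMA, had an FPKM of 1.33, 1.40 and 1.28 in control and 2.00, 1.54 and 1.42 in EFV-treated mice, with the EFV values above the controls on the FPKM scale but not in scaled counts, and it did not pass (log2 fold change 0.29, standard error 0.19).

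The genes that act after the release of cytochrome c had 13 of 13 tested and 0 past the limits, with log2 fold changes from -0.03 to 0.15. Xiap, an inhibitor of caspase 9 and other caspases, was the most abundant with 79.9 ± 6.36 FPKM in control mice and 79.5 ± 5.94 FPKM in EFV-treated mice (SD, n = 3 each). Its low libraries were control library 3 with 72.5 and EFV library 3 with 72.6, 1 in each group. Htra2, a mitochondrial protease that antagonises such inhibitors, had the smallest p of the list and a difference of 0.09 on the log2 scale (standard error 0.07). Cycs, which encodes the cytochrome c that binds APAF1, had a mean FPKM of 15.3 over all libraries, against 7.44 for Casp9 and 2.34 for Apaf1.

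Of the p53 route, which induces Bax, Bbc3 and Apaf1 in other settings, 9 of 10 genes were tested, 7 above 0 and 2 below, and 1 passed. This was Zmat3, a p53 target that encodes an RNA-binding protein, with an FPKM of 2.62, 2.42 and 2.56 in control and 3.48, 2.55 and 3.09 in EFV-treated mice. EFV library 2 lay inside the control range. The fitted log2 fold change was 0.25 (standard error 0.10, unadjusted edgeR p 0.0399), and it was 0.14 without EFV library 1, 0.35 without EFV library 2, 0.25 without control library 3 and 0.24 without EFV library 3. The unadjusted p of Zmat3 was above 0.05 without 5 of the 6 libraries in turn (0.0579 to 0.164), the exception being EFV library 2 (0.00256 by edgeR), and with limma on log2(FPKM + 0.1) (0.0880). DESeq2 on all libraries gave 0.0362. Ccng1 was the most abundant of the list (34.7 ± 0.267 and 36.2 ± 2.06 FPKM, SD, n = 3 in each group), at a log2 fold change of 0.04 (standard error 0.05). All 8 genes of the death receptor route, which reaches caspases without mitochondria, were tested and 0 passed. Ripk1, a kinase that binds death receptors, had the smallest p of that list (log2 fold change 0.16, standard error 0.10), with an FPKM of 1.71, 1.81 and 1.59 in control and 1.89, 1.87 and 2.00 in EFV-treated mice. Cflar, an inhibitor of caspase 8, was the most abundant (mean FPKM 6.73 in control and 6.91 in EFV-treated mice).

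**Figure D5:**
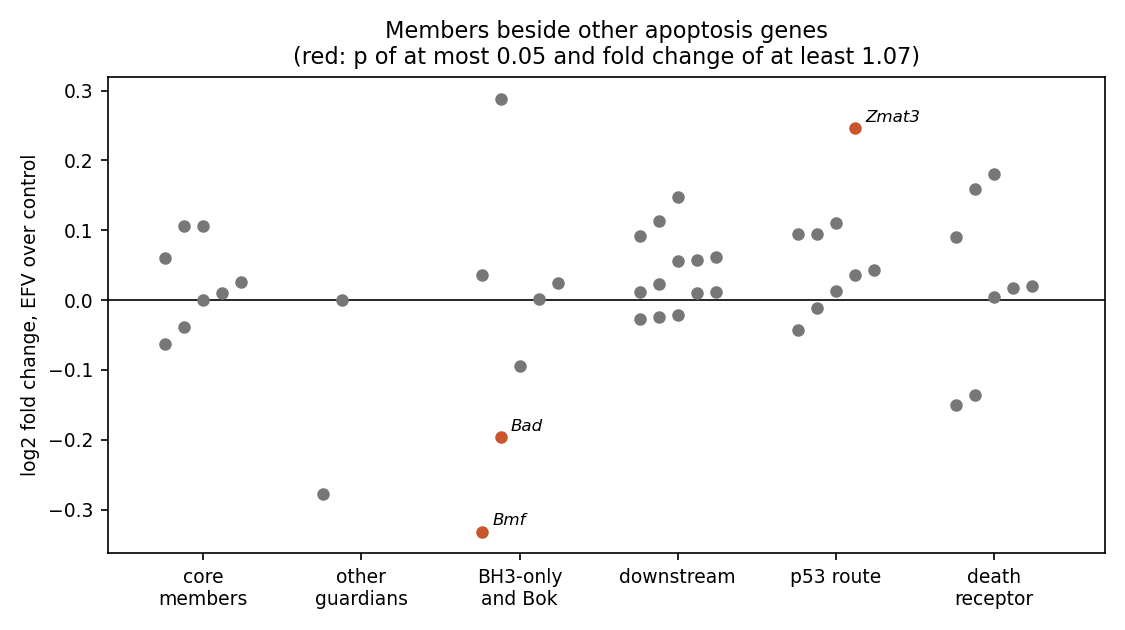
Log2 fold change, EFV-treated over control, of the 8 members and of the 39 further apoptosis genes tested, by list; each point is 1 gene and red marks an unadjusted edgeR p of 0.05 or less with a change of at least 7% as a fold. The members lay between -0.06 and 0.11, and the red genes were Bad, Bmf and Zmat3.

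Markers of cell types were set beside these values. The 8 rod genes summed to 25410 to 26180 in control and 24380 to 25900 in EFV-treated mice, 8 ganglion cell genes to 468.6 to 513.7 and 478.6 to 523.1, 8 Müller cell genes to 1738 to 1883 and 1787 to 1806, and 8 microglial genes to 25.5 to 28.0 and 26.4 to 28.6. Endothelial genes summed to 58.0 to 64.9 in control and 57.4 to 62.1 in EFV-treated mice. The groups overlapped in each list. Log2 fold changes lay below 0 for 7 of the 8 endothelial, 6 of the 8 Müller cell, 6 of the 8 ganglion cell and 5 of the 8 rod genes. They lay above 0 for 5 of the 7 microglial genes tested, and 0 genes of these lists passed the limits. Of the 8 RPE genes 7 had a log2 fold change above 0 and 2 passed the limits, beside 3.01% of all genes. Their sum was lowest in control library 2, at 231.1, and most of it was Rlbp1, which is also in the Müller cell list. Rpe65 was 4.65, 2.35 and 5.69 in control and 6.05, 6.59 and 6.69 in EFV-treated mice. All 8 lens genes tested were past the limits and lower in EFV-treated mice through control library 3. No marker of these lists was at 0 in every library. Without control library 3, 0 of the 8 members passed the limits, as with all libraries.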

How the data were processed

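RNA of 6 libraries, 3 per group, was analysed. The authors filtered reads, aligned them to mm10 with Bowtie2 v2.2.5 and deposited, for each gene, the expected counts that RSEM (v1.2.12) estimates, without normalization; the submitters' processing notes also name HISAT2 2.0.4. The deposited FPKM values are these counts as scaled by the authors for transcript length and library size. The files also hold the mean transcript length of each gene. The annotation release, read filter and strandedness are not given in the sources used here.

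Expected counts were rounded, and genes reaching 10 counts in 3 or more libraries entered a quasi-likelihood fit in edgeR (version 4.0.16, R 4.3.3), with TMM scaling (factors 0.984 to 1.01), group as the only term, two-sided, with Benjamini-Hochberg adjustment over all 15537 tested. The 95% intervals use the standard error of that fit and its t distribution. The biological coefficient of variation was 0.0983. Groups were compared for overlap in TMM-scaled counts. Alternatives were other scalings and filters, DESeq2 1.42.0, limma 3.58.1 on log2(FPKM + 0.1) and log2(FPKM + 1), Poisson, the block of replicate numbers, Entrez genes only, and leaving out each library. The code was tested on simulated data. Gene positions and promoters come from RefSeq GRCm38.p6 and transcripts from GENCODE M21, on the build of the files.

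Named were all members, and from each further list the genes past the limits, the most abundant and that with the smallest p. Bcl2a1 genes, Bbc3, Cycs and Fadd, and the Y-linked genes, were named after their values were seen. The members and lists were chosen with earlier results of these data known. Replicates are pools. The p-values of edgeR, DESeq2 and limma set a difference against the spread between pools, and those of the Poisson model against counting error alone.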

Additional observations from a re-analysis of the deposited data

How the results depend on the processing

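None of the 8 members passed the limits of p and fold change with other scalings, other filters, DESeq2, limma on either pseudocount, the replicate block, Entrez genes only or any 1 library left out, and 2 passed with the Poisson model, in which only counting error enters. The count of 3 among the further apoptosis genes became 1 with limma on log2(FPKM + 0.1), 1 with limma on log2(FPKM + 1) and 5 with the Poisson model, and ranged from 0 to 2 with 1 library left out. The directions of Apaf1, Bcl2l1, Bcl2l11 and Casp9 were the same under all 17 alternatives. The log2 fold change of Bcl2 changed sign to 0.0075 without control replicate 2 and 0.0245 without EFV replicate 1 (range -0.0723 to 0.0245), that of Mcl1 to -0.0323 and -0.0024 without the same libraries (range -0.0323 to 0.0457), and that of Bak1 to -0.0279 without control replicate 1 (range -0.0279 to 0.0724). For Bax, at -0.0002, it was 0.0025 with upper quartile scaling, 0.0152 with total counts, 0.0005 with a filter of 50 counts, 0.0231 and 0.0223 with limma on log2(FPKM + 0.1) and log2(FPKM + 1), 0.0008 with Entrez genes only, 0.0229 without control replicate 3 and 0.0292 without EFV replicate 1 (range -0.0286 to 0.0292). The cause was not tested, and all these values lie inside the intervals. What same-numbered libraries share beyond the number is not stated in the labels. Their deviations correlated by 0.125, 0.0832 and 0.0992, and those of differently numbered libraries by -0.101 to -0.00629. Each library correlated best with its own number. The deviations within a group sum to 0 for each gene, so positive values for same-numbered libraries bring negative ones for the others. The same-number and different-number values are therefore not independent, and the source of the pattern was not tested. With the replicate block 514 of all genes passed the limits in place of 467, and 0 of the members and 2 of the further genes did. The Bax to Bcl2 difference (0.06 on the log2 scale) was 0.04 from counts and 0.01 to 0.11 with 1 library left out. Genes that did not reach 10 counts in at least 3 libraries were not tested, and the members had 280 or more counts in each library.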
